A study of Mus musculus with 16 samples.

Results

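The genes described here are 7 matrix metalloproteinases (MMP2, MMP3, MMP9, MMP10, MMP11, MMP13 and MMP14) and 3 tissue inhibitors of metalloproteinases (TIMP1, TIMP2 and TIMP3). They are the 10 genes of a named list whose symbols stand in the deposited table, out of 18132 genes in all and of 26 genes there with an MMP or TIMP symbol. The list was selected on earlier results of these same arrays, among them the log2 differences between medium-treated and untreated cells such as that of MMP9, so for that treatment the values of the 10 genes are a description and are given without p values.

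Metalloproteinases are zinc enzymes, mostly secreted as inactive precursors, that cut collagens, laminin, fibronectin and other proteins of the extracellular matrix. TIMPs bind their active sites and block them, and the balance of enzyme and inhibitor sets how far matrix is broken down. In the mammary gland fibroblasts are a main source of both, and stromal metalloproteinases are long known from the tissue around invading breast tumors.

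The arrays were made from primary mammary fibroblasts of female 129S6 mice aged 8 to 10 weeks, either MEKK1+/+ or MEKK1-/-, the second deficient in the MEKK1 kinase (gene symbol MAP3K1). Cells of each genotype stayed in DMEM with serum (untreated) or received the same medium after it had been on cultures of MDA-MB-231, a line of human breast cancer cells (conditioned medium, CM), for 8 h. This gave 4 groups of 4 arrays, numbered 1 to 4 in each group. The cultures came from 3 mice of each genotype, and the mouse behind each culture is not given. The 4 cultures of a group therefore include cultures that share a mouse, and spreads and p values concern cultures, not animals.

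All values below are log2 intensities after quantile normalization, which gives the 16 arrays the same distribution. A gene counted as above background where it exceeded the 99th percentile of 1075 olfactory receptor genes on that array. The array medians as deposited ran from 114 to 170.1, and within groups the arrays correlated at 0.979 to 0.996. The MAP3K1 level was not reduced on arrays labelled MEKK1-/-, at 8.24 ± 0.15 (SD, n = 4) untreated and 8.07 ± 0.21 with CM against 7.71 ± 0.19 and 7.74 ± 0.32 on MEKK1+/+ arrays, so genotype is taken from the labels throughout. Of 10 fibroblast markers 9 were above background on all 16 arrays. Of 17 macrophage markers 8 were above it on all arrays and 4 on none (ITGAM, FCER1G, MSR1 and PTPRC). The summed intensity of the macrophage list was 14510 to 44740 in untreated MEKK1+/+ cells and 11690 to 38070 with CM, against 6136 to 29610 and 5809 to 26160 on arrays labelled MEKK1-/-. The summed intensity of 7 epithelial markers was 995.2 to 1159 on MEKK1+/+ arrays. It was 9741 and 8204 on the untreated and CM arrays labelled MEKK1-/- and numbered 1, which stand apart in this. On arrays 2 to 4 labelled MEKK1-/- it was 1139, 1565 and 1535 untreated and 1125, 1219 and 1310 with CM. Arrays 3 and 4 thus also lay above the MEKK1+/+ range. In these bulk cultures fewer cells of a type and less RNA per cell cannot be told apart.

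MMP3, MMP10 and MMP13 stand in a row of 10 MMP genes on chromosome 9, with no other protein-coding gene between them in the RefSeq annotation. Their start regions are shown because these 3 genes share a motif there, and TIMP3, the member lower with CM past the threshold in both genotypes, is shown beside them. Each line gives the 100 bases before the annotated start, on the + strand of RefSeq's GRCm38.p6, at chr9:7272414-7272513 for MMP13, chr9:7445722-7445821 for MMP3, chr9:7502242-7502341 for MMP10 and chr10:86300312-86300411 for TIMP3. Capitals mark TGANTCA (N is any base), the form of the AP-1 motif that was searched, and AGGAAG, bound by PEA3 and other ETS factors.
MMP13: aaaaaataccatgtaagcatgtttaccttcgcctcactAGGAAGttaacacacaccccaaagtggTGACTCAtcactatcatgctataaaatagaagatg
MMP3: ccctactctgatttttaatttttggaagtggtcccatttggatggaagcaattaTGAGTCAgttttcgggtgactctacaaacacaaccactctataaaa
MMP10: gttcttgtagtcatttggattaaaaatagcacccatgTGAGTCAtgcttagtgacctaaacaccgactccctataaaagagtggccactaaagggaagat
TIMP3: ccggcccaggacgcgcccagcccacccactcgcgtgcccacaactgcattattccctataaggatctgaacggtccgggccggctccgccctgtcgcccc

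The motif search covered 300 bases per promoter, from 250 before the start to 50 after it, on both strands. TGANTCA was found in 2565 of 32851 promoters of the RefSeq table (7.81%). Among the 8 members with an entry it was found in 3, MMP13, MMP3 and MMP10, beginning 35, 46 and 63 bases before the start, and it was not found in these windows of MMP11, MMP14, TIMP1, TIMP2 and TIMP3. In the chromosome 9 row 8 of 10 genes held it at 1 annotated start or more. They included all 5 that were above background on every array (MMP13, MMP12, MMP3, MMP1A and MMP10), of which MMP1A was close to it (7.29 to 7.70). A link between motif and level was not tested. Of the 5 that were above it on no array, 3 held the motif, MMP20 among them as TGAATCA. MMP12 and MMP7 have more than 1 annotated start and held it at only 1, whereas the 7.81% is a share of promoters. AGGAAG, found in 35.4% of all promoters, was in those of MMP3, MMP13, MMP14, TIMP1 and TIMP3. The NF-kB motif was in 8.46% of all promoters and in none of these 8. A match of letters is a description and does not show binding. The table has no entry for MMP2 and MMP9.

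All 10 genes were above background on all 16 arrays, whereas 6923 of all 18132 genes were. With CM, 2 of the 10 genes were past limma's threshold (an adjusted p under 0.05) in MEKK1+/+ cells, MMP9 higher and TIMP3 lower, where 5.01% of all genes passed, 2.27% higher and 2.75% lower. On the arrays labelled MEKK1-/- 3 passed, MMP9 and MMP13 higher and TIMP3 lower, where 4.69% of all genes passed, 2.18% higher and 2.51% lower. Since this contrast entered the choice of the genes, nothing follows from these shares. The median log2 difference of the 10 genes was 0.28 in MEKK1+/+ cells and 0.24 on arrays labelled MEKK1-/-, against a median of 0.00 over all genes in each. The 4 arrays of the treated and the untreated group did not overlap for MMP9 and TIMP3 in MEKK1+/+ cells (9.7% of all genes) and for MMP9, MMP10, MMP11, MMP13, MMP14 and TIMP3 on arrays labelled MEKK1-/- (10.4% of all genes).

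**Figure D1:**
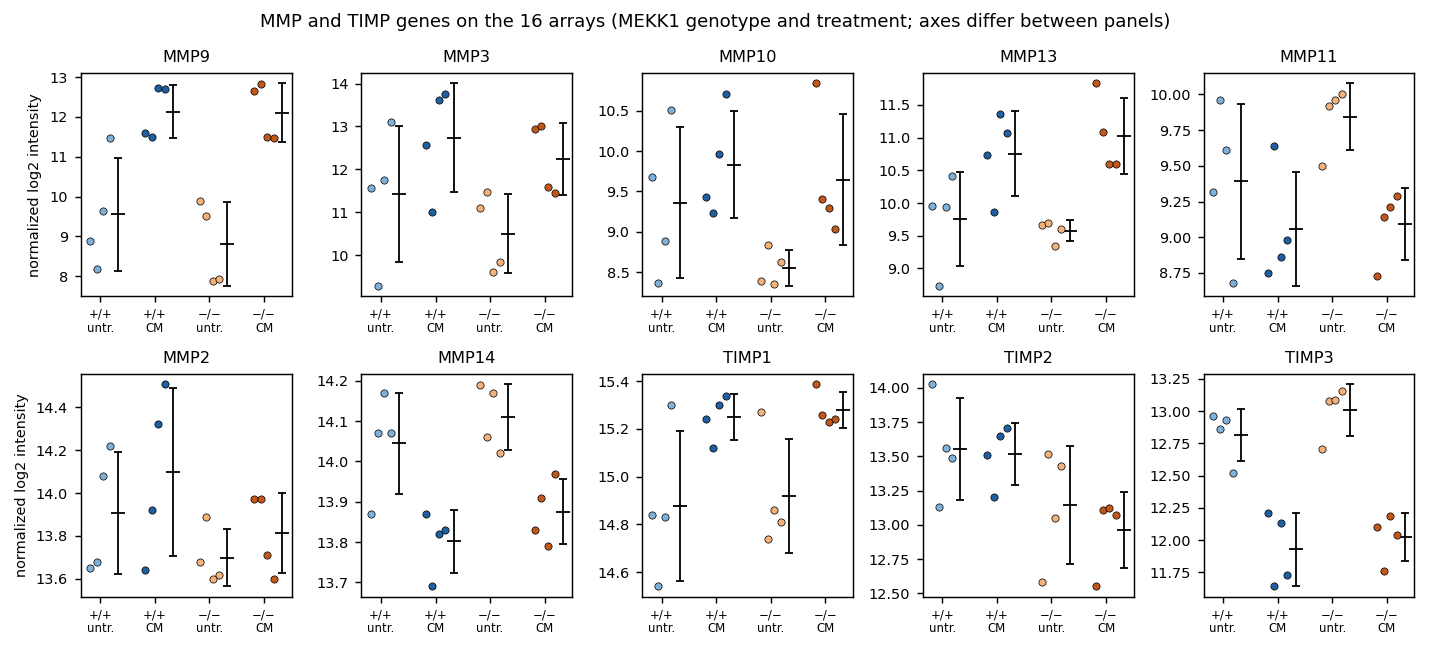
Normalized log2 intensity (vertical axis, range differing between panels) of the 10 genes on each of 16 arrays, in 4 groups by MEKK1 genotype and treatment (untr., untreated); points are replicates 1 to 4 from left to right, and the bar is the mean ± SD. MMP9 and TIMP3 separate by treatment in both genotypes, while MMP3 and MMP2 spread within groups about as far as between them.

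MMP9, gelatinase B, which cleaves denatured collagen and the type IV collagen of basement membranes, had the widest range of the 10 genes (SD over the 16 arrays 1.79). In untreated MEKK1+/+ cells it was 8.89, 8.18, 9.65 and 11.48 on replicates 1 to 4, and with CM it was 11.60, 11.50, 12.72 and 12.69. On untreated arrays labelled MEKK1-/- it was 9.90, 9.50, 7.87 and 7.94, and with CM it was 12.66, 12.82, 11.49 and 11.46. The groups did not overlap in either genotype, but in MEKK1+/+ cells untreated replicate 4 came within 0.01 of the lowest treated array, so the separation there is narrow. The gap was 1.56 on arrays labelled MEKK1-/-. The log2 difference was 2.57 (SE 0.64, 95% interval 1.20 to 3.94), or 5.95-fold, in MEKK1+/+ cells and 3.31 (SE 0.64, 1.94 to 4.68), or 9.90-fold, on arrays labelled MEKK1-/-. In MEKK1+/+ cells MMP9 did not pass the threshold when untreated replicate 1, 2 or 3 or CM replicate 3 or 4 was left out, with differences from 2.11 to 3.22 over all arrays left out, nor when only the groups compared were fitted or with a plain replicate block. It passed under every alternative on arrays labelled MEKK1-/-.

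MMP2, gelatinase A, an enzyme of similar substrates that fibroblasts make without stimulation, differed little. Its group means were 13.91 ± 0.29 (SD, n = 4) untreated and 14.09 ± 0.39 with CM in MEKK1+/+ cells, and 13.70 ± 0.13 and 13.81 ± 0.19 on arrays labelled MEKK1-/-. The log2 difference with CM was 0.19 (95% interval -0.18 to 0.56) in MEKK1+/+ cells, where without quantile normalization it was -0.13, and 0.12 (-0.25 to 0.49) on arrays labelled MEKK1-/-. Both groups overlapped in both genotypes, and neither difference passed the threshold.

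The stromelysins MMP3 and MMP10 cleave proteoglycans, laminin and fibronectin and activate other metalloproteinases, MMP9 among them. MMP3 was 11.57, 9.28, 11.76 and 13.11 in untreated MEKK1+/+ cells and 12.57, 11.01, 13.62 and 13.75 with CM. On arrays labelled MEKK1-/- it was 11.10, 11.47, 9.60 and 9.85 untreated and 12.94, 13.01, 11.58 and 11.44 with CM. Treated and untreated arrays overlapped in both genotypes, on arrays labelled MEKK1-/- by 0.03. On the log2 scale treated and untreated means differed by 1.31 (SE 0.76, 95% interval -0.30 to 2.92) and 1.74 (SE 0.76, 0.13 to 3.35), and neither passed the threshold. When 1 array was left out the first ran from 0.59 to 1.88. Compared by replicate number, MMP3 was higher with CM in 4 of 4 pairs of each genotype. The differences were 1.00, 1.72, 1.86 and 0.64 in MEKK1+/+ cells and 1.84, 1.55, 1.99 and 1.58 on arrays labelled MEKK1-/-, where their SD was 0.21 beside an SD between arrays of 0.92 untreated and 0.85 treated.

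**Figure D2:**
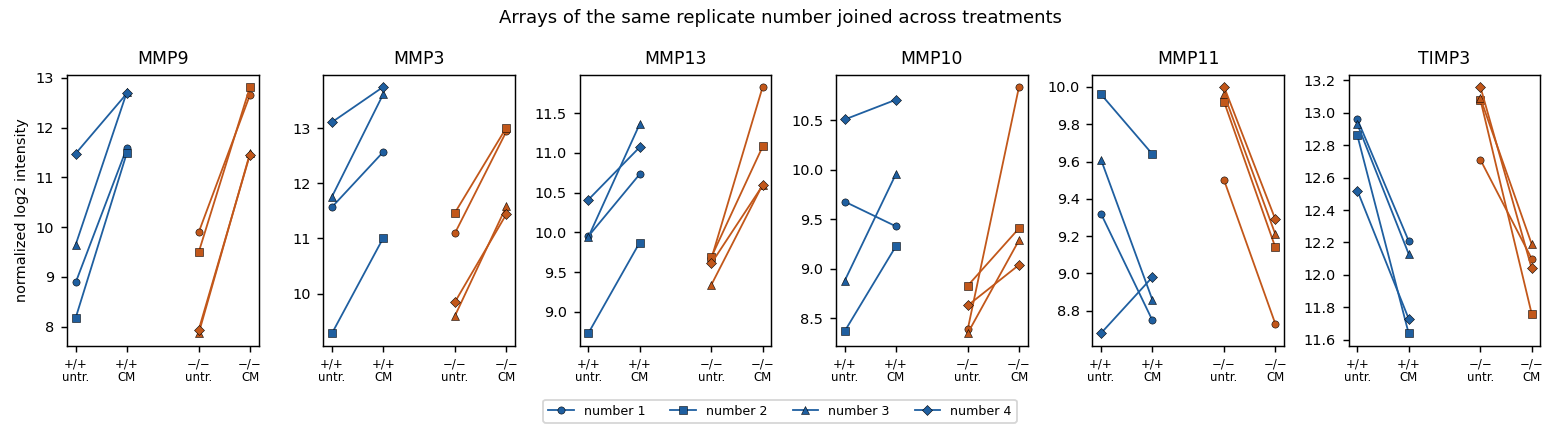
Normalized log2 intensity (vertical axis, range differing between panels) of 6 genes without and with CM, with lines joining untreated and treated arrays of the same replicate number; blue is MEKK1+/+, orange MEKK1-/-, and the marker shape is the number. The lines of MMP9, MMP3 and MMP13 all climb and those of TIMP3 all descend, and the MMP11 lines labelled MEKK1-/- run nearly parallel, from -0.77 to -0.70.

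The replicate numbers met the pairing criterion, a correlation above 0.1 in every pair, on arrays labelled MEKK1-/- and not in MEKK1+/+ cells. With the number as a block within genotype, 6 of the 10 genes passed on arrays labelled MEKK1-/- in place of 3: MMP3, MMP9, MMP13 and TIMP1 were higher and MMP11 and TIMP3 lower. Over all genes 1438 (7.93%) passed in that fit in place of 851. As above, these calls describe genes chosen on this contrast and nothing is read from their number.

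MMP10 was 9.68, 8.37, 8.88 and 10.51 in untreated MEKK1+/+ cells and 9.43, 9.23, 9.96 and 10.71 with CM. Its levels on arrays labelled MEKK1-/- were 8.39, 8.83, 8.35 and 8.63 untreated and 10.84, 9.41, 9.29 and 9.04 with CM. Groups overlapped in MEKK1+/+ cells and not on arrays labelled MEKK1-/-. The log2 difference was 0.47 (SE 0.45) and 1.09 (SE 0.45), and neither passed the threshold. In MEKK1+/+ cells it was 0.07 as deposited and ran from 0.14 to 0.855 when 1 array was left out. Array 1 with CM carried much of the second, with a difference of 2.44 from its untreated array. Without both arrays numbered 1, where the epithelial markers were highest, the second was 0.64.

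MMP11, or stromelysin 3, which is found in the stroma of breast carcinomas and cuts matrix proteins weakly, differed in the opposite direction. It was 9.32, 9.96, 9.61 and 8.68 in untreated MEKK1+/+ cells and 8.75, 9.64, 8.86 and 8.98 with CM. On arrays labelled MEKK1-/- it was 9.50, 9.92, 9.96 and 10.00 untreated and 8.73, 9.14, 9.21 and 9.29 with CM. Here all 4 treated arrays lay below all 4 untreated ones, while in MEKK1+/+ cells the groups overlapped. On the log2 scale treated and untreated means differed by -0.33 (SE 0.24) and -0.75 (SE 0.24), neither past the threshold. In MEKK1+/+ cells the value was -0.75 as deposited and ran from -0.57 to -0.15 when 1 array was left out. It passed on arrays labelled MEKK1-/- with only the groups compared, by the test on z-scores and without untreated MEKK1+/+ replicate 4. By replicate number MMP11 was lower by 0.77, 0.77, 0.74 and 0.70 on arrays labelled MEKK1-/- (SD 0.03), and in MEKK1+/+ cells it was lower in 3 of 4 pairs.

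MMP13, collagenase 3, which cuts fibrillar collagen and is the main interstitial collagenase of the mouse, was 9.95, 8.73, 9.94 and 10.41 in untreated MEKK1+/+ cells and 10.73, 9.87, 11.36 and 11.07 with CM. Its levels on arrays labelled MEKK1-/- were 9.67, 9.69, 9.34 and 9.61 untreated and 11.83, 11.08, 10.60 and 10.59 with CM. In MEKK1+/+ cells only the treated array numbered 2 fell among the untreated ones, and on arrays labelled MEKK1-/- the groups were 0.90 apart. The log2 difference was 1.00 (SE 0.36, 95% interval 0.23 to 1.77), which did not pass the threshold, and 1.45 (SE 0.36, 0.68 to 2.22), which did. The second no longer passed when any of the 4 untreated arrays or CM replicate 1 or 2 was left out, with differences from 1.18 to 1.59, without both arrays numbered 1 (1.21), on the values as deposited (1.36) or with arrays scaled to the same median (1.36).

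MMP14, a membrane-bound metalloproteinase that activates the MMP2 precursor at the cell surface, had the narrowest range of the 10 genes (SD over the 16 arrays 0.15). Its group means were 14.04 ± 0.13 (SD, n = 4) untreated and 13.80 ± 0.08 with CM in MEKK1+/+ cells, and 14.11 ± 0.09 and 13.88 ± 0.08 on arrays labelled MEKK1-/-. On the log2 scale treated and untreated means differed by -0.24 (SE 0.07) and -0.23 (SE 0.07). Neither passed the threshold, but the first did as deposited (-0.54) and both did with arrays scaled to the same median (-0.26 and -0.29). Treated arrays were not above untreated ones of the same number in any pair of either genotype.

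Of the inhibitors, TIMP3, which is held in the matrix and also blocks several membrane-bound sheddases, was lower with CM in both genotypes. It was 12.96, 12.86, 12.93 and 12.52 in untreated MEKK1+/+ cells and 12.21, 11.64, 12.13 and 11.73 with CM. On arrays labelled MEKK1-/- it was 12.71, 13.08, 13.09 and 13.16 untreated and 12.10, 11.76, 12.19 and 12.04 with CM. All 8 treated arrays lay below all 8 untreated ones. The log2 difference was -0.90 (SE 0.14, 95% interval -1.20 to -0.59), a 1.86-fold lower level, and -0.99 (SE 0.14, -1.30 to -0.68), 1.98-fold. Both passed the threshold, and the second did not on the values as deposited, where it was -1.07.

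TIMP1, a soluble inhibitor of most metalloproteinases, was higher with CM by 0.37 (SE 0.14) and 0.36 (SE 0.14), neither past the threshold. It was 14.84, 14.54, 14.83 and 15.30 in untreated MEKK1+/+ cells and 15.24, 15.12, 15.30 and 15.34 with CM. Its levels on arrays labelled MEKK1-/- were 15.27, 14.74, 14.86 and 14.81 untreated and 15.39, 15.26, 15.23 and 15.24 with CM. In each genotype 1 untreated array reached the treated ones, and all 4 arrays were higher than the untreated array of the same number. As deposited the difference in MEKK1+/+ cells was 0.09.

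TIMP2, the inhibitor that takes part in MMP2 activation with MMP14, differed by -0.03 (SE 0.22, 95% interval -0.49 to 0.43) and -0.18 (SE 0.22, -0.64 to 0.28) with CM. The first was -0.37 as deposited and ran from -0.17 to 0.13 when 1 array was left out. Treated and untreated arrays overlapped in both genotypes.

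**Figure D3:**
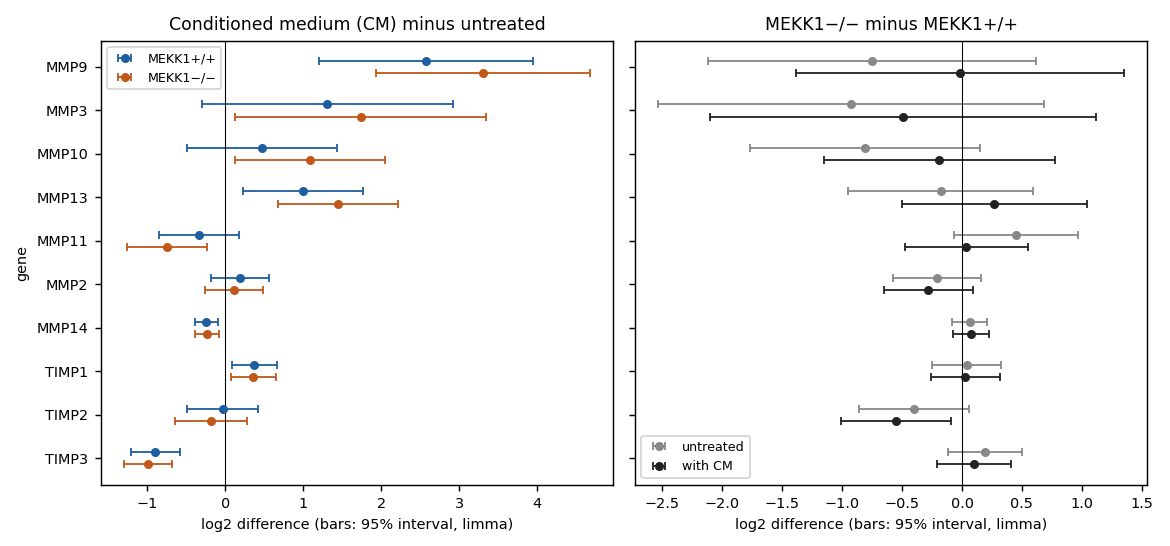
Log2 difference (horizontal axis, with 95% interval from limma) of each of the 10 genes with CM against untreated in each genotype (left) and between arrays labelled MEKK1-/- and MEKK1+/+ in each condition (right). On the left MMP9 reaches 2.57 and 3.31 and TIMP3 -0.90 and -0.99, and on the right the only interval that leaves out 0 is that of TIMP2 with CM, at -0.55.

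Between genotypes limma called 0 of the 10 genes, in untreated cells (0% of all genes) or with CM (0.00552% of all genes). Without adjustment, 0 of the 10 were under 0.05 in untreated cells (9.27% of all genes) and 1 with CM (8.09% of all genes). The test on z-scores that the study names called TIMP3 in untreated cells (4.51% of all genes) and 0 of the 10 with CM (2.54% of all genes). The median log2 difference of the 10 genes was -0.19 untreated and 0.00 with CM. Ordered by mean level, neighbouring groups overlapped for every gene except TIMP3, where the untreated groups of both genotypes lay above both treated groups.

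TIMP2 with CM was the only one of the 10 genes whose arrays did not overlap between genotypes, where 4.17% of all genes did not overlap. In untreated cells all 10 genes overlapped between genotypes, where 4.61% of all genes did not overlap. With CM it was 13.51, 13.20, 13.65 and 13.71 in MEKK1+/+ cells and 12.55, 13.11, 13.12 and 13.07 on arrays labelled MEKK1-/-. The closest arrays were 0.07 apart, and replicate 1 labelled MEKK1-/- was the lowest. The log2 difference between genotypes was -0.55 (SE 0.22, 95% interval -1.01 to -0.09, limma adjusted p = 0.566, exact permutation p = 0.0286, 2-sided and the smallest that 4 arrays against 4 allow). Groups of 4 arrays that do not overlap always give this exact p, so it adds nothing to that separation. The log2 difference ran from -0.66 to -0.41 when 1 array was left out, and was -0.41 without both arrays numbered 1. In untreated cells TIMP2 was 14.03, 13.13, 13.56 and 13.49 against 12.58, 13.52, 13.05 and 13.43, a log2 difference of -0.40 (SE 0.22, adjusted p = 0.574 from limma, exact p = 0.171). These groups overlapped.

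MMP9 with CM differed between genotypes by -0.02 (SE 0.64, 95% interval -1.39 to 1.35, adjusted p = 0.996 from limma, exact permutation p = 0.8286), and by 0.07 as deposited. In untreated cells the difference was -0.75 (SE 0.64, -2.12 to 0.62, adjusted p = 0.735 from limma, exact permutation p = 0.457), and it ran from -1.21 to -0.11 when 1 array was left out. The intervals leave room for differences of more than 2-fold either way with CM, so these arrays do not show that the genotypes are alike. MMP3 was lower on arrays labelled MEKK1-/- by 0.92 in untreated cells (adjusted p = 0.725 from limma, exact permutation p = 0.371) and by 0.49 with CM (adjusted p = 0.881, exact permutation p = 0.514). The untreated MMP3 difference ran from -1.64 to -0.36 when 1 array was left out. For MMP10 the untreated difference was -0.81 (95% interval -1.77 to 0.15, adjusted p = 0.593 from limma, exact permutation p = 0.143), and for MMP11 it was 0.45 (-0.07 to 0.96, adjusted p = 0.577, exact permutation p = 0.229).

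The 5 remaining genes, MMP2, MMP13, MMP14, TIMP1 and TIMP3, had adjusted p values by limma from 0.688 to 0.971 in the 2 genotype comparisons, and the sizes of their differences ran from 0.03 to 0.28. The narrowest intervals were those of MMP14, -0.08 to 0.21 untreated and -0.08 to 0.22 with CM. The untreated differences of MMP14 (0.06), TIMP1 (0.04) and TIMP3 (0.19) turned negative as deposited and with arrays scaled to the same median, and with CM those of MMP14 (0.07), TIMP1 (0.03) and TIMP3 (0.10) turned negative at the same median.

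The interaction, which asks whether the difference with CM itself differed between genotypes, passed limma's threshold for 0 of the 10 genes (0% of all genes), with 0 under 0.05 before adjustment (2.61% of all genes) and 0 by the test on z-scores (0.11% of all genes). It was 0.73 for MMP9 (SE 0.91, 95% interval -1.20 to 2.67), 0.43 for MMP3 (SE 1.07, -1.85 to 2.71), 0.62 for MMP10 (SE 0.64, -0.74 to 1.98), 0.45 for MMP13 (SE 0.51, -0.64 to 1.54) and -0.41 for MMP11 (SE 0.34, -1.14 to 0.32). For TIMP3 it was -0.09 (SE 0.20, -0.53 to 0.34), and 0.21 as deposited. The adjusted p from limma was 1.00 for each of the 10 genes. The interaction is formed from the differences with CM, which entered the choice of the genes. These counts and p values are therefore a description, and nothing follows from them.

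Of the 16 other MMP and TIMP genes of the table, 4 were above background on all arrays (MMP1A, MMP12, MMP17 and MMP23) and 9 on none. By limma 0 of the 16 passed in each comparison, and before adjustment 1 and 0 were under 0.05 with CM (16.8% and 16.2% of all genes), 1 and 1 between genotypes and 1 for the interaction. The test on z-scores called MMP8, which was above background on no array, with CM in MEKK1+/+ cells and between untreated genotypes.

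MMP12, macrophage metalloelastase, was 10.25, 7.96, 9.38 and 10.75 in untreated MEKK1+/+ cells and 9.55, 8.42, 7.68 and 7.60 on untreated arrays labelled MEKK1-/-. With CM it was 10.59, 8.80, 10.55 and 10.99 against 10.90, 9.22, 8.12 and 8.19. These groups overlapped, with log2 differences between genotypes of -1.27 (SE 0.70, adjusted p = 0.589 from limma) and -1.12 (SE 0.70, adjusted p = 0.691). The differences with CM were 0.65 in MEKK1+/+ cells and 0.80 on arrays labelled MEKK1-/-. MMP17, a membrane-anchored enzyme, was 9.53 ± 0.27 (SD, n = 4) untreated and 9.96 ± 0.28 with CM in MEKK1+/+ cells, and 10.00 ± 0.49 and 10.33 ± 0.24 on arrays labelled MEKK1-/-. MMP23 was 11.36 ± 0.25 and 11.23 ± 0.30, and then 11.25 ± 0.19 and 11.01 ± 0.28. MMP1A lay between 7.29 and 7.70 on all arrays, close to background.

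**Figure D4:**
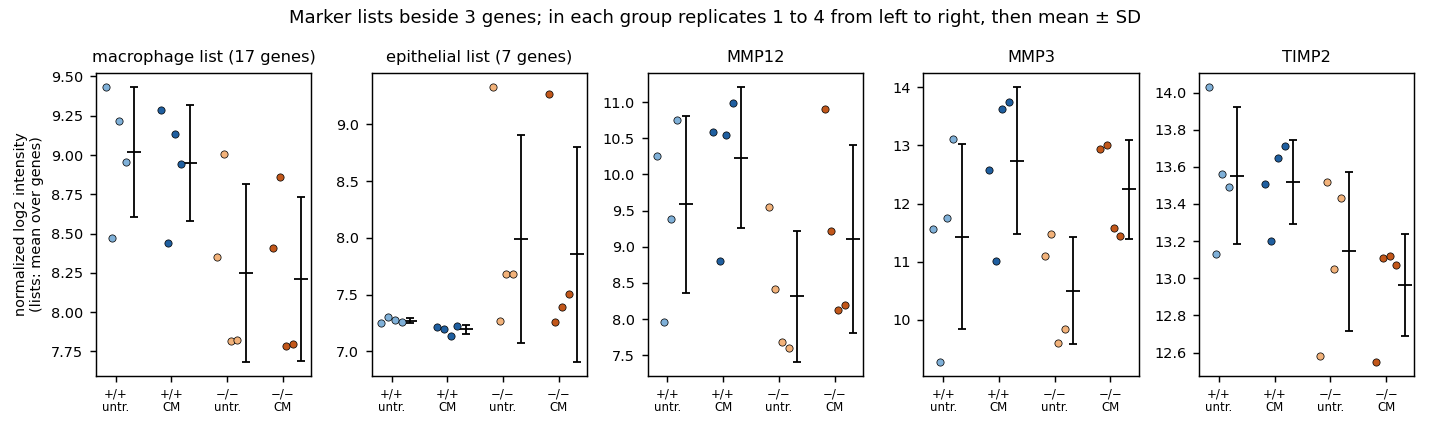
Mean normalized log2 intensity of 17 macrophage and 7 epithelial markers, and the level of MMP12, MMP3 and TIMP2 (vertical axes, range differing between panels), on each of 16 arrays in 4 groups; points are replicates 1 to 4 from left to right and bars the mean ± SD. The epithelial list stands at 9.33 and 9.27 on the MEKK1-/- arrays numbered 1, and the macrophage list is lowest on the MEKK1-/- arrays numbered 3 and 4.

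Of the 17 macrophage markers 0 passed limma's threshold between genotypes in either condition, and the list means of the arrays overlapped between genotypes. The median log2 difference of the list was -0.74 untreated and -0.64 with CM between arrays labelled MEKK1-/- and MEKK1+/+, with 14 and 15 of 17 genes lower, and -0.08 and -0.03 with CM against untreated. The mean over the list was 9.43, 8.47, 9.22 and 8.96 on untreated MEKK1+/+ arrays and 8.35, 9.01, 7.82 and 7.82 on untreated arrays labelled MEKK1-/-. In untreated MEKK1+/+ cells the list was lowest on array 2, as were MMP3, MMP9, MMP10, MMP12, MMP13, TIMP1 and TIMP2. It was highest on array 1, as was TIMP2, while the other genes just named were highest on array 4. On arrays labelled MEKK1-/- the list, MMP3, MMP9, MMP12 and MMP13 were lower on arrays 3 and 4 than on arrays 1 and 2. Untreated MMP10, TIMP1 and TIMP2 did not show this order. The mean of 7 neutrophil markers, of which 0 were above background on all arrays and 4 on none, was 7.43, 6.91, 7.32 and 8.05 on untreated MEKK1+/+ arrays and 7.53, 7.47, 6.92 and 6.998 on those labelled MEKK1-/-. This list was highest and lowest on the same untreated MEKK1+/+ arrays as MMP9, numbers 4 and 2, and its summed intensity there was 5151 and 847.4. MMP3, MMP10, MMP12, MMP13 and TIMP1 were also highest and lowest on these arrays, so this is not particular to MMP9. MMP11 was the reverse, lowest on array 4 and highest on array 2. With CM the list was again highest on array 4 and lowest on array 2, at 8.00 and 7.15. MMP9 was then highest on array 3 and lowest on array 2. CAMP was above background on 13 arrays, S100A8 on 10 and S100A9 on 2, so the list rests mostly on CAMP and S100A8. The part of other cell types in these levels was not tested.

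Among 18 proteases, receptors and inhibitors that activate or restrain metalloproteinases, 15 were in the table and 9 of them were above background on all arrays. By limma 0 of the 15 passed in each comparison. Before adjustment 2 and 3 were under 0.05 with CM (16.8% and 16.2% of all genes), 2 and 0 between genotypes (9.27% and 8.09%) and 0 for the interaction (2.61%). The test on z-scores called PLAT, above background on no array, and CTSB with CM in MEKK1+/+ cells (10.6% of all genes) and THBS1 on arrays labelled MEKK1-/- (11.3% of all genes).

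For the 3 members that varied most over the 16 arrays, the likeness of other genes was measured as the root mean square distance between centred log2 profiles, over 8781 genes above background on at least 4 arrays. Nearest to MMP9 were SERPINB2 (0.65), an inhibitor of plasminogen activators, ICAM1 (0.71), a leukocyte adhesion molecule, and CSF2 (0.77), a growth factor of myeloid cells. On untreated arrays labelled MEKK1-/- SERPINB2 averaged 7.01 and CSF2 6.87, below background (7.24 to 7.30), where MMP9 averaged 8.80. Nearest to MMP3 were SLPI (0.52), a protease inhibitor, CCL11 (0.53), a chemokine, and NFKBIA (0.62), the inhibitor of NF-kB. Nearest to MMP13 were IER3 (0.35), VEGFC (0.37), a growth factor of lymphatic vessels, and 2810439F02RIK (0.39).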

How the data were processed

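RNA of 16 fibroblast cultures was hybridized to Illumina Mouse 8 arrays. The authors deposited linear intensity values, 1 per gene symbol and array, which the labels call normalized at a core facility. The method, background treatment and build are not given in the sources used here. The 18132 values of each array were log2 transformed and quantile normalized, and 4 group means were fitted with lmFit and eBayes of limma 3.58.1 (R 4.3.3, 12 residual degrees of freedom). Adjusted p values are Benjamini-Hochberg over all genes, threshold 0.05. For the members, single differences between genotypes were also tested by 2-sided exact permutation. The members, gene lists, tests and alternatives were chosen with earlier results of these data known. All 10 members are named. Other MMP and TIMP genes are named where above background on all arrays, and other names were chosen after their values were seen. The fit was run on simulated data with independent noise on each array. Cultures that share a mouse were not simulated, so that run does not cover them. Same-numbered arrays were checked as pairs by the correlation across genes of their deviations from group means, which was 0.505, 0.403, 0.219 and 0.251 for MEKK1-/- arrays 1 to 4 (pairing accepted above 0.1, from this check alone) and -0.04, 0.485, 0.120 and 0.576 for MEKK1+/+. The test on z-scores, after the study, divides differences of z-scores by their replicate error. Alternatives were other scalings, a pseudocount of 16, a background filter, only the groups compared, replicate blocks and each array left out, and, added after the data were seen, both MEKK1-/- arrays numbered 1 left out. No array was left out of the main comparison. The number of arrays limits the precision.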

Additional observations from a re-analysis of the deposited data

Results flagged for a closer look

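In 40 groups of 4 arrays (10 genes in 4 groups), 2 arrays lay far from the others of their group. Chance gives about 1 in 20 groups, which would be 2 of 40 if the groups were independent. They are not independent, since the 10 genes were read on the same arrays. The expected number therefore does not bear on the cause of the 2 flags, which was not tested. Untreated replicate 1 labelled MEKK1-/- was the lowest for MMP11, at 9.50 with the nearest array at 9.92, a gap of 0.8411 of the group's range. The CM array labelled MEKK1-/- and numbered 1 was the lowest for TIMP2, at 12.55 with the nearest at 13.07, a gap of 0.9096 of the range. Both are the arrays on which the epithelial markers were highest (list mean 9.33 and 9.27), and the part of this in the values was not tested.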

How the results depend on the processing

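The causes of the differences between settings below were not tested. With CM in MEKK1+/+ cells 909 genes passed, against 591 with only the groups compared and 1916 by the test on z-scores (505 to 992 with 1 array left out). On arrays labelled MEKK1-/- 851 passed, against 45 as deposited, 463 with the same array median and 2047 by the test on z-scores (473 to 1029). Between genotypes the test on z-scores called 817 genes untreated (limma 0, with 0 to 1 when an array was left out and 1 without both arrays numbered 1) and 460 with CM (limma 1, with 7 at the same median, 0 with only the groups compared, 0 to 2 when an array was left out and 2 without both arrays numbered 1). For the interaction it called 20 (limma 0, and 0 to 1). Of the 10 members with CM in MEKK1+/+ cells 2 passed, against 1 with only the groups compared (1 to 3 with an array left out). On arrays labelled MEKK1-/- 3 passed, against 1 as deposited, MMP9 (2 to 4). Between untreated genotypes 1 passed by the test on z-scores.

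With a plain replicate block 1 member passed in MEKK1+/+ cells, TIMP3. With the replicate number as a block within genotype 1481 genes passed in MEKK1+/+ cells, where the numbers did not meet the pairing test, among them 5 members (MMP3, MMP9, MMP13, TIMP1 and TIMP3), and 1438 on arrays labelled MEKK1-/-, among them 6 members. The untreated array correlated best with the treated array of its own number in 3 of 4 MEKK1+/+ pairs and in 2 of 4 MEKK1-/- pairs. MMP12 passed in both genotypes in this fit. The plain replicate block changed no call of a member between genotypes. The block within genotype was not fitted for the comparisons between genotypes.

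Small differences between genotypes turned sign, and 0 of these passed in either direction under limma. Untreated, MMP2 was 0.0228 by the test on z-scores (in z-score units), MMP14 -0.11 as deposited and -0.14 at the same median, TIMP1 -0.0804, -0.10 and, without both arrays numbered 1, -0.0769, and TIMP3 -0.0507 and -0.0711. With CM, MMP9 was 0.0686 as deposited and 0.0299 by the test on z-scores. At the same median MMP11 was -0.13 (-0.0069 by the test on z-scores), MMP14 -0.17, TIMP1 -0.19 (-0.0104 without both arrays numbered 1) and TIMP3 -0.15. The interaction was 0.21 for MMP2, 0.20 for TIMP1 (0.0665 without both arrays numbered 1), 0.11 for TIMP2 and 0.21 for TIMP3 as deposited, and for MMP14 -0.0360 at the same median and -0.0822 by the test on z-scores. With 1 array left out the untreated differences ran from -0.52 to 0.0408 for MMP13 and -0.0769 to 0.18 for TIMP1. With CM they ran from -0.25 to 0.20 for MMP9, -0.59 to 0.10 for MMP10, -0.0676 to 0.23 for MMP11, -0.0252 to 0.47 for MMP13 and -0.0169 to 0.0574 for TIMP1. The interaction ran from -0.23 to 0.0654 for MMP2, -0.14 to 1.15 for MMP3, -0.0336 to 0.0680 for MMP14, -0.15 to 0.10 for TIMP1 and -0.19 to 0.0051 for TIMP3. As deposited the median of all genes shifted by -0.28 with CM in MEKK1+/+ cells, and 32 genes passed higher and 763 lower there, against 411 and 498 after quantile normalization, 34 and 11 against 395 and 456 on arrays labelled MEKK1-/-. At the same median the splits were 291 and 590, and 221 and 242.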

Other observations

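Of the regulators of metalloproteinases, 2 are named here after their values were seen. LRP1, an endocytic receptor that clears metalloproteinases and TIMPs, was higher by 0.42 with CM in MEKK1+/+ cells (SE 0.17, adjusted p = 0.193 from limma) and by 0.45 on untreated arrays labelled MEKK1-/- (SE 0.17, adjusted p = 0.498). PLAUR, the receptor that holds urokinase at the cell surface, differed by -0.50 with CM on arrays labelled MEKK1-/- (SE 0.19, adjusted p = 0.187). The PLAUR mean was also lower with CM in MEKK1+/+ cells (9.53 untreated, 9.15 with CM). The LRP1 mean was also higher with CM on arrays labelled MEKK1-/- (9.67 untreated, 9.99 with CM). With CM it was 9.64 in MEKK1+/+ cells. Neither gene passed limma's threshold in any comparison of the main fit, although the block within genotype called PLAUR lower with CM in both genotypes.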
